A study of Drosophila melanogaster with 2 samples.

Results

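The cytosolic ribosomal protein genes of Drosophila melanogaster were taken as the protein-coding genes whose Ensembl symbol is RpL or RpS followed by a digit or by P. The rule found 92 genes among 13945 protein-coding genes on the 6 chromosome arms, 54 named for the large subunit and 38 for the small subunit. Some of them, such as RpL24-like, RpL7-like and RpLP0-like, share a name with a ribosomal protein but resemble assembly factors of yeast (Rlp24, Rlp7 and Mrt4). The data were peak lists from chromatin immunoprecipitation followed by sequencing (ChIP-seq) of Huckebein, a zinc finger transcription factor of the Sp/KLF type that acts at the ends of the early embryo. Flies of the hkb-GFP strain carried an insertion targeting hkb, so that Huckebein was fused to eGFP, and an antibody against GFP recovered the bound chromatin from whole embryos. There was 1 group of 2 biological replicates, both from the same strain. The embryos were 0 to 24 h old, with all tissues and stages mixed and sex not collected, and their chromatin was sonicated to 200 to 800 bp. No untagged, input or other control sample was used here, so peaks that would arise without the tag cannot be told apart from those that need it. The lists give no read counts, so library depth is unknown.

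Each ribosome is built from a large and a small subunit, and the genes of their proteins are transcribed in nearly every cell at matched high rates. Most fly ribosomal protein genes start within a run of pyrimidines, the TCT initiator, in place of the usual initiator and TATA box, and in flies the factors TRF2, M1BP and DREF have been found at their promoters. Loss of a single copy of many of these genes gives the Minute phenotype of slow development and short bristles.

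Start regions of 4 large subunit genes are shown to make this promoter type visible. Each run below covers 130 bases before to 24 bases after the start of the gene's canonical transcript, read 5′ to 3′ on the gene's strand from the RefSeq copy of the Release 6 (dm6) assembly, and the start is base 131. Capitals mark TCTTT or CCTTT (the TCT initiator letters) near the start, ATCGAT (the core of the DRE, the site of DREF) and CGTTTCC, a word picked from the data as described further on. RpL32, which had the highest value of all 92 genes, is at chr3R:30046116-30046270 on the minus strand. RpL24 is at chr2L:13395068-13395222 and RpL30 at chr2L:19009213-19009367, both on the minus strand. RpL3 is at chr3R:11221764-11221918 on the plus strand.
RpL32: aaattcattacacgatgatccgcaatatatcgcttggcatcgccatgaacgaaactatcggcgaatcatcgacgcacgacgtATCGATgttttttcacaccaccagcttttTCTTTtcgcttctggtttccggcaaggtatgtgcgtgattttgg
RpL24: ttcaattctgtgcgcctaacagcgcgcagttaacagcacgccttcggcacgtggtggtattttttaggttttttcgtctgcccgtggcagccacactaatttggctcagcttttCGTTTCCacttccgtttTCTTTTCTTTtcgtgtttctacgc
RpL30: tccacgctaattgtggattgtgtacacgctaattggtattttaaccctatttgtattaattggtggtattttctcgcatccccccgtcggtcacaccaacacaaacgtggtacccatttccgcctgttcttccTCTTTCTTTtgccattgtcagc
RpL3: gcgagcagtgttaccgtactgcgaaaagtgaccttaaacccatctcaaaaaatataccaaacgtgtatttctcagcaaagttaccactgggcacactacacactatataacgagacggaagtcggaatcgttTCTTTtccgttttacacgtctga

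A gene was counted as having a peak when a summit lay within 500 bp of an annotated start of one of its own transcripts. In the combined list, which the authors thresholded after joining both replicates, 71 of the 92 ribosomal protein genes had a peak (77.2%, exact 95% interval 67.3 to 85.3%), against 24.3% of all protein-coding genes. In the list of replicate 1 alone, 61 of 92 had a peak (66.3%, 55.7 to 75.8%), against 18.7% of all protein-coding genes. In the list of replicate 2 alone, 59 of 92 had a peak (64.1%, 53.5 to 73.9%), against 16.4% of all protein-coding genes. All 3 lists thus put the ribosomal protein genes at more than the share over all genes. The intervals cover counting error over genes only, and genes of the same 2 libraries are not replicates, so no p-value was computed.

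The 71 genes rested on 71 different peaks. Another 12 peaks lay within 500 bp of the same genes, so that 12 genes had 2 peaks each. The share with a peak was lower in 2 groups of genes of related processes. Of the 73 genes named mRpL or mRpS, whose products form the mitochondrial ribosome, 23 had a peak in the combined list (31.5%, 21.1 to 43.4%). Of the 52 genes named eIF or eEF, mostly translation initiation and elongation factors, 17 had a peak (32.7%, 20.3 to 47.1%). The intervals of both groups lay below that of the cytosolic genes. When only genes with any candidate summit in the long unthresholded combined list were counted, 71 of 85 ribosomal protein genes (83.5%) had a peak, against 34.2% of 9905 protein-coding genes.

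The large and the small subunit genes had peaks at shares whose intervals overlapped in each list. In the combined list, 41 of 54 large subunit genes (75.9%, 62.4 to 86.5%) and 30 of 38 small subunit genes (78.9%, 62.7 to 90.5%) had a peak. In replicate 1, 38 of 54 large subunit genes (70.4%) and 23 of 38 small subunit genes (60.5%) had one. In replicate 2, 38 of 54 large subunit genes (70.4%) and 21 of 38 small subunit genes (55.3%) had one. The subunits lay further apart in their signal values, the authors' score for the strength of each peak, whose scale the labels do not give. The median signal value in the combined list was 212 at the 41 large subunit genes and 151 at the 30 small subunit genes. Median values in replicate 1 were 128.5 at large and 96.9 at small subunit genes, and in replicate 2 they were 94.7 at large and 66.1 at small subunit genes. The large subunit genes thus had the higher median in each replicate list and in the combined list, although the ranges overlapped, with values up to 530.1 at large and up to 398 at small subunit genes.

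The peaks of the ribosomal protein genes were neither the weakest nor the strongest of the list. Their signal values in the combined list had a median of 178.8 and quartiles of 112.6 and 250.1, against a median of 120.0 and quartiles of 87.9 and 209 at the other protein-coding genes with a peak. The highest value of a ribosomal protein gene was 530.1, while values at other genes reached 2889. Of the 71 genes, 37 (52.1%) had a peak in the strongest 25% of the combined list, against 32.5% of the other genes with a peak. By subunit, 26 of 41 large subunit genes (63.4%) and 11 of 30 small subunit genes (36.7%) were in that upper 25%.

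**Figure D1:**
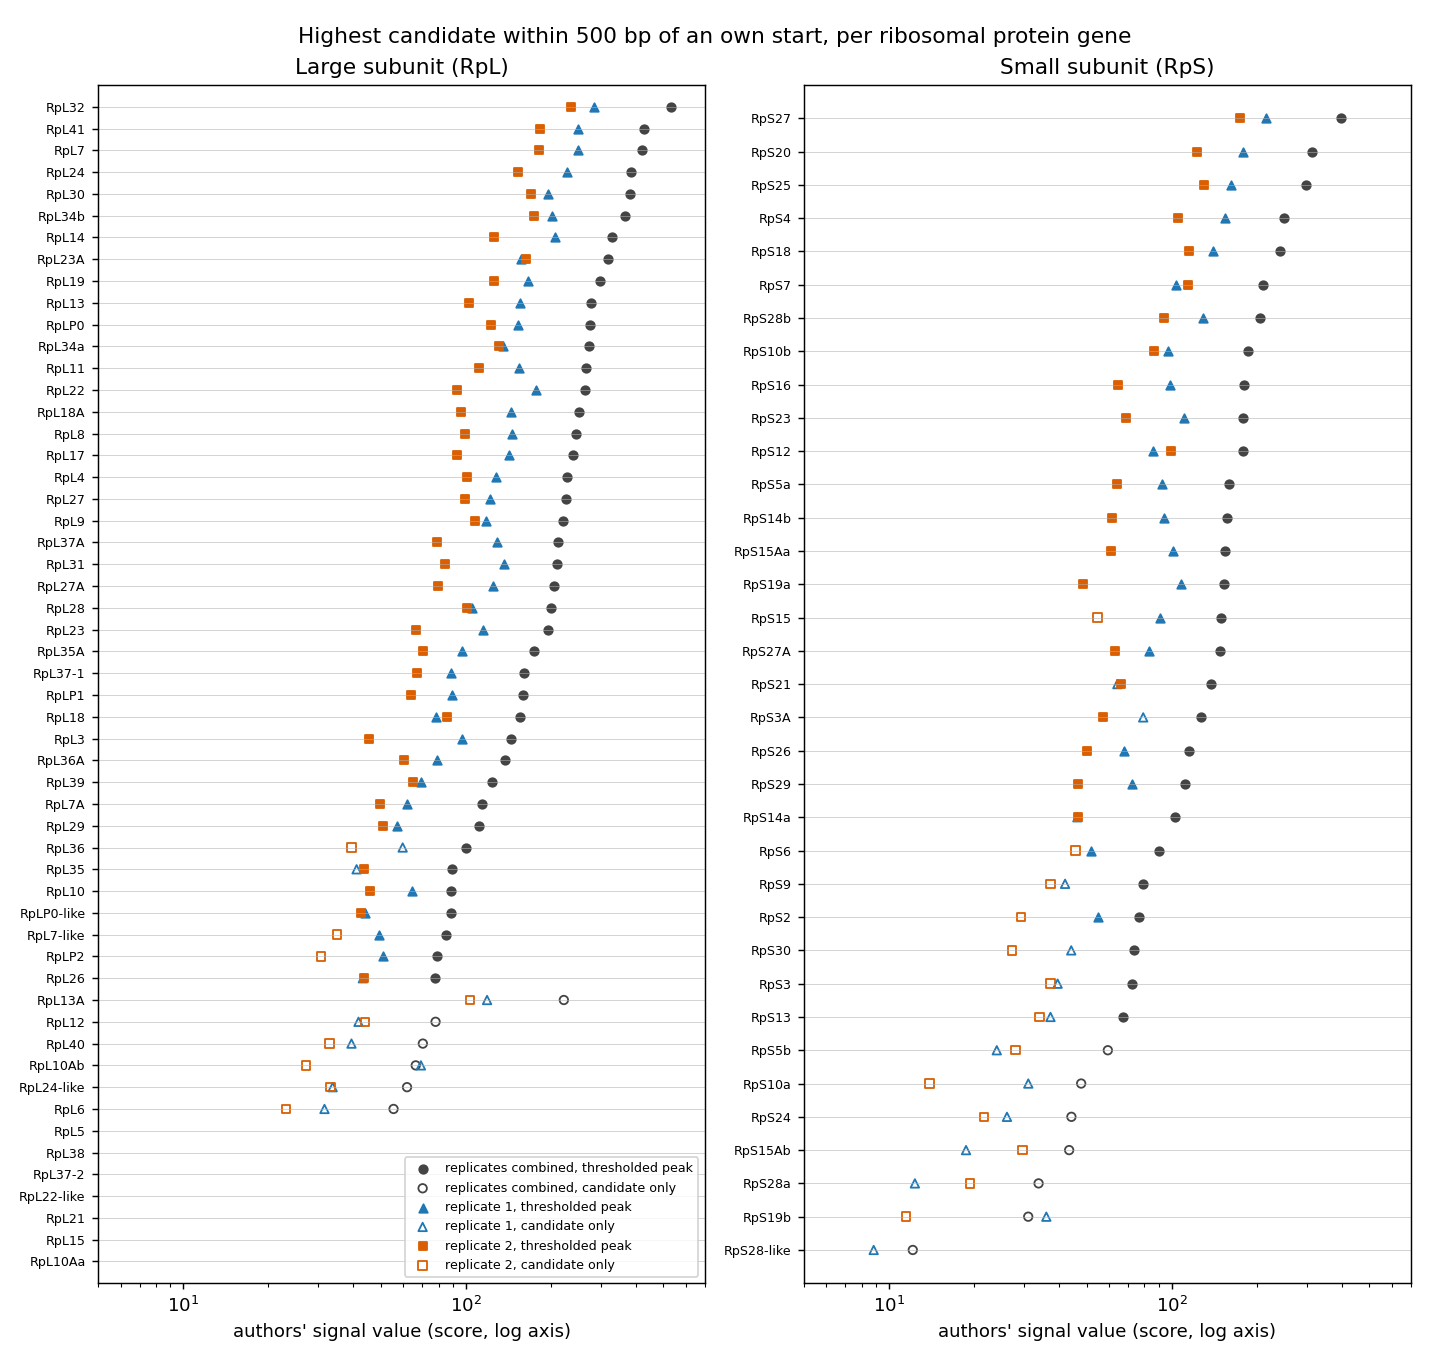
Signal value (a score, log axis) of the highest peak or candidate within 500 bp of an own start for 89 of the 92 ribosomal protein genes, large subunit genes on the left panel and small subunit genes on the right, for the combined list (circles), replicate 1 (triangles) and replicate 2 (squares). Filled symbols are peaks of the thresholded lists and open symbols are candidates that are not in those lists. Genes with a peak run from 530.1 at RpL32 to 67.1 at RpS13 in the combined list, and 7 genes at the bottom of the left panel have no candidate.

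The strongest large subunit gene was RpL32 (FBgn0002626), whose transcript is a common reference in fly expression work. Its signal value was 530.1 with both replicates joined, 284 in replicate 1 and 235 in replicate 2. Its peak, at chr3R:30046111-30046456, had its summit 121 bp upstream of the nearest RpL32 start, and CG7943 starts 188 bp from the summit on the other strand. RpL7 had signal values of 419 with both replicates joined, 249 in replicate 1 and 181 in replicate 2, with its summit 33 bp upstream. RpL24, whose protein forms a bridge between the subunits, had 383 with both replicates joined, 227 in replicate 1 and 153 in replicate 2. Its summit lay 13 bp upstream of the nearest start, inside the run shown above. RpL30, whose yeast counterpart binds its own transcript, had 381 with both replicates joined, 195 in replicate 1 and 170.0 in replicate 2, with the summit 9 bp upstream. The nearest other protein-coding start was far from both summits, CG16957 at 1040 bp from that of RpL24 and robl37BC at 1551 bp from that of RpL30. RpL34b had signal values of 365 with both replicates joined, 202 in replicate 1 and 174 in replicate 2. Its summit lay 128 bp upstream, and CG8132 starts 141 bp from the summit on the other strand.

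The gene next in strength to RpL32 was RpL41, which encodes a very short basic protein. Its signal value was 428 with both replicates joined, 249 in replicate 1 and 182 in replicate 2. Its summit lay 118 bp upstream of its own start and 64 bp from the start of NaCP60E, a sodium channel family gene, so the peak was nearer to the other gene.

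Among small subunit genes RpS27, which encodes a zinc-binding protein, was the strongest. Its signal value was 398 with both replicates joined, 216 in replicate 1 and 175 in replicate 2, and its peak was at chr3R:25247393-25247656. The summit position differed between lists, at 13 bp upstream with the replicates joined, 55 bp upstream in replicate 1 and 25 bp upstream in replicate 2. RpS20, a protein of the small subunit head, had 314 with both replicates joined, 179 in replicate 1 and 123 in replicate 2. Its summit lay 162 bp upstream, and CG17271 starts 171 bp from the summit on the other strand. RpS25, which in yeast and human cells is needed for initiation at some viral entry sites, had 299 with both replicates joined, 163 in replicate 1 and 130.0 in replicate 2, with the summit 66 bp upstream. RpS4 had 249.8 with both replicates joined, 154 in replicate 1 and 105 in replicate 2, with the summit 21 bp upstream. RpS18, another protein of the head, had 241 with both replicates joined, 140.1 in replicate 1 and 115 in replicate 2. Its summit lay 26 bp downstream of the start in the combined list and in replicate 2, and 6 bp upstream in replicate 1. RpS7 had 209.6 with both replicates joined, 103 in replicate 1 and 115 in replicate 2, with the summit 22 bp upstream. RpS7 was the exception among these 12 leading genes in having the higher value in replicate 2. The remaining 59 genes with a peak had signal values in the combined list of at most 329 (RpL14).

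The 3 proteins of the stalk, the arm of the large subunit that recruits translation factors, come from RpLP0, RpLP1 and RpLP2. In the combined list, RpLP0 had a value of 275, RpLP1 had 159 and RpLP2 had 79.2. RpLP0 and RpLP1 had a peak in both replicate lists, and RpLP2 had a peak in replicate 1 (50.8) but not in replicate 2. RpS27A, which is made as a fusion with ubiquitin, had a peak of 148 in the combined list, whereas RpL40, the other ubiquitin fusion, had a peak (70.4) in the authors' conservative list but none in the combined list. RpL11, which sits with RpL5 on the 5S RNA, had a peak of 266 in the combined list, and RpL5 had none. RpS6, whose protein is phosphorylated downstream of the TOR kinase, had a weak peak of 89.8 in the combined list.

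The replicates ranked the ribosomal protein genes alike. A candidate summit was present in the unthresholded lists of both replicates at 84 of the 92 genes. Across these 84 genes, which share both libraries, Pearson's r of the log2 signal values was 0.91 and Spearman's rho was 0.931, given as a description. The value was higher in replicate 1 at 71 of the 84 genes, with a median ratio of replicate 1 to replicate 2 of 1.32 and a range of 0.631 to 3.13. The lists of the replicates were thresholded and scaled separately by the authors, so this ratio cannot be read as a difference in binding.

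**Figure D2:**
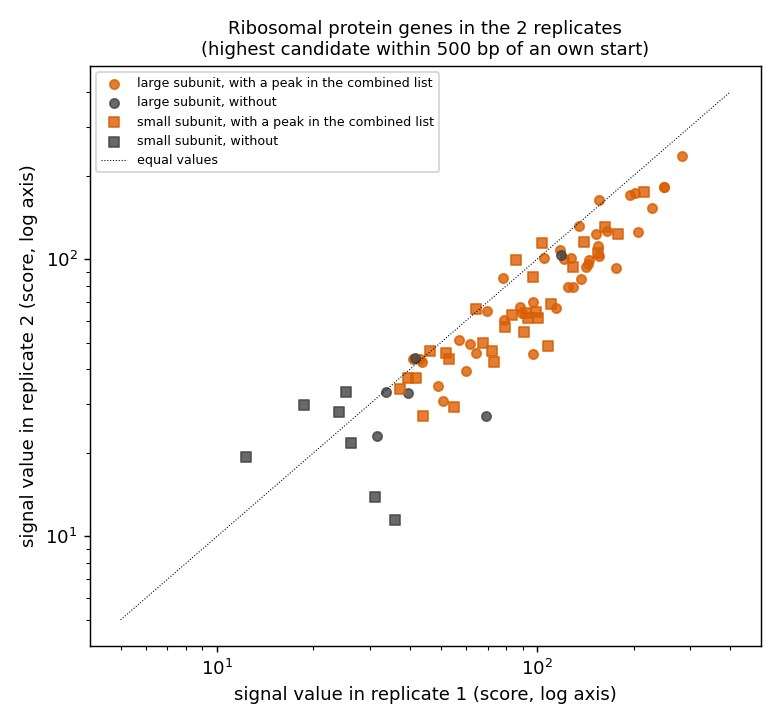
Signal value of the highest candidate of each ribosomal protein gene in replicate 1 (horizontal) and replicate 2 (vertical), both scores on log axes, with circles for large and squares for small subunit genes. Orange marks genes with a peak in the combined list, grey marks genes without, and the dotted line marks equal values. Of 84 genes, 71 lie below the line, and the grey circle among the higher values is RpL13A at 119 in replicate 1 and 103 in replicate 2.

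Of the 71 genes with a peak in the combined list, 54 (76.1%) also had a peak in both replicate lists, against 54.1% of the 3314 other protein-coding genes with a peak. That share was 36 of 41 (87.8%) at large subunit genes and 18 of 30 (60.0%) at small subunit genes. RpL36, RpS3, RpS9, RpS13 and RpS30 had a peak in the combined list and in neither replicate list, with combined signal values between 67.1 and 100.2. A peak in replicate 1 but not in replicate 2 was found at 7 genes, among them RpL7-like, RpLP2, RpS2, RpS6 and RpS15. RpL26, RpL35, RpS3A, RpS14a and RpS21 had a peak in replicate 2 but not in replicate 1. All 17 genes that missed a replicate list had values at or below 149 in the combined list, under the median of 178.8. In the 54 genes listed in both replicates, the summits differed by a median of 14.5 bp, and those of 50 genes lay within 50 bp of each other. The largest difference was 243 bp, at RpL23, where the strongest summit was 273 bp upstream of a start in replicate 1 and 30.0 bp upstream in replicate 2. RpL23 had 2 peaks in the combined list, the stronger 268 bp upstream and the nearer 20 bp from the start. The difference thus need not be a shift of the same summit.

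The summits of the ribosomal protein genes sat at the start of transcription, while those of most other genes lay further upstream. Positions are given from the nearest annotated start of the gene, with negative values upstream. The median summit position was −14 bp at the 71 ribosomal protein genes (quartiles −42 and 14), −144 bp at the 23 mitochondrial ribosomal protein genes, −60 bp at the 17 eIF and eEF genes and −121 bp at the 3314 other genes (quartiles −204 and −14). A summit within 50 bp of an own start was found at 50 of 71 ribosomal protein genes (70.4%, 58.4 to 80.7%), at none of the 23 mitochondrial ribosomal protein genes (0%, 0 to 14.8%), at 6 of 17 eIF and eEF genes (35.3%, 14.2 to 61.7%) and at 527 of the other 3314 genes (15.9%, 14.7 to 17.2%). In replicate 1 the share was 68.9% at ribosomal protein genes and 14.2% at other genes, and in replicate 2 it was 69.5% at ribosomal protein genes and 11.8% at other genes. A summit upstream of the start was found at 46 of 71 ribosomal protein genes (64.8%, 52.5 to 75.8%), against 77.3% of other genes.

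Of the genes with a peak, 40 of the 71 have several annotated starts, which shortens the distance to the nearest. With only the outermost start of each gene, 58.6% of ribosomal protein genes with a peak had a summit within 50 bp of it, against 15.4% of other genes, and the median position was −3 bp, against −113 bp at other genes. Large and small subunit genes had similar positions in the combined list. The median was −20 bp at the 41 large subunit genes and −11 bp at the 30 small subunit genes. Within 50 bp were 27 (65.9%) of the large and 23 (76.7%) of the small subunit genes. In replicate 1 these shares were 68.4% at large and 69.6% at small subunit genes. They lay further apart in replicate 2, at 60.5% of large and 85.7% of small subunit genes. Farthest from an own start was RpS13, at 475 bp downstream, followed by RpL7-like at 381 bp upstream.

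**Figure D3:**
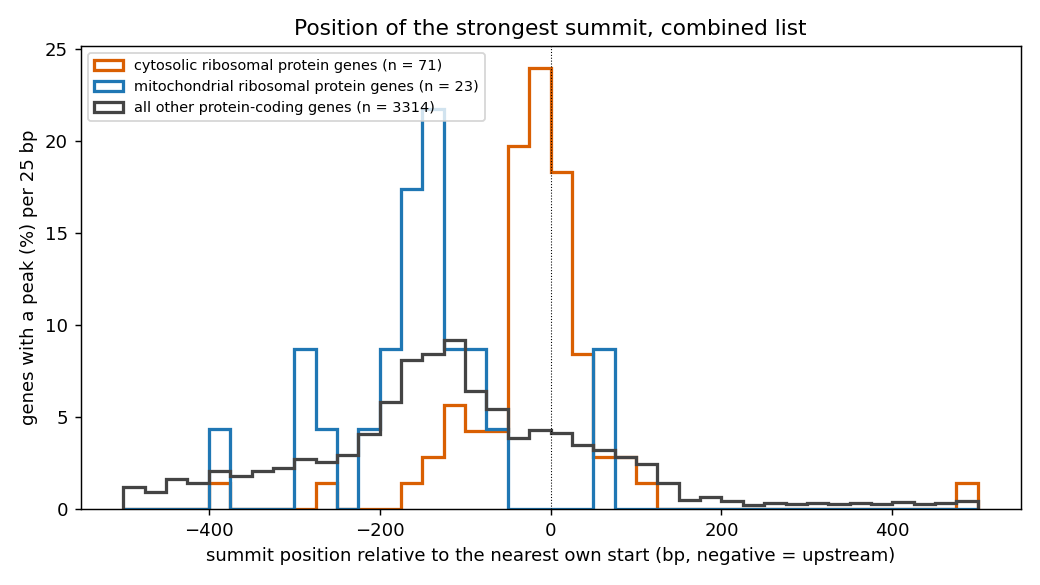
Position of the strongest summit from the nearest own start (bp, negative is upstream) in the combined list, as the percentage of genes with a peak in bins of 25 bp. Cytosolic ribosomal protein genes (orange, n = 71) pile up at the dotted line that marks the start, with a median of −14 bp, while mitochondrial ribosomal protein genes (blue, n = 23) and all other protein-coding genes (black, n = 3314) centre upstream at −144 bp and −121 bp.

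Many ribosomal protein genes start close to another gene, as do many other genes with a peak. At 30 of the 71 genes the summit also lay within 500 bp of the start of another protein-coding gene. The same held at 1538 of the 3314 other protein-coding genes with a peak, so the share was not higher at ribosomal protein genes. At 29 of the 30 ribosomal protein genes the other gene is on the opposite strand. This count was not made for the other genes, so it cannot be read as a trait of the ribosomal protein genes. These 30 genes had a median signal value of 214 and a median summit position of −35.5 bp, and 16 of them (53.3%) had the summit no more than 50 bp from their own start. The 41 genes with no other start that near had a median signal value of 159 and a median position of −9 bp, and 34 of them (82.9%) had the summit within 50 bp. Among the other protein-coding genes the shares within 50 bp were 12.2% of 1538 genes with another start near the summit and 19.1% of 1776 genes without one. Closeness to the own start was thus seen at ribosomal protein genes of both arrangements, and more often at those with no near neighbour.

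At 3 genes the summit was nearer to the start of the neighbour than to their own. These were RpL41, RpLP0-like, where the summit fell on the start of 14-3-3zeta, and RpL7-like, where it fell 4 bp from the start of JhI-21. With these genes left out, 68 genes had a peak and the median position was −13 bp. Examples of shared regions in which the ribosomal protein gene was the nearer include RpL7 with Ripalpha, RpL14 with Nelf-E, a subunit of a pausing factor, and RpS27 with Nup37, a nuclear pore gene. The summit of RpL13 lay 14 bp downstream of its own start and 115 bp from the start of Dref, the gene of the DRE-binding factor.

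A search for known promoter words described the start regions of all 92 genes and of the peaks. Start windows ran from 250 bases before to 50 bases after the canonical start of 13944 protein-coding genes, and summit windows ran 50 bases to each side of the strongest summit. The TCT initiator was searched as TCTTT or CCTTT on the gene's strand with its C near the start, and the other words on both strands. With the C within 5 bases of the start, 39 of 92 ribosomal protein genes (42.4%) held the initiator, against 2.20% of all protein-coding genes. Within 20 bases it was 63 of 92 (68.5%), against 30.8% of eIF and eEF genes, 8.22% of mitochondrial ribosomal protein genes and 8.71% of all genes. The initiator letters were present with and without a peak, at 51 of 71 ribosomal protein genes with a peak (71.8%) and 12 of 21 without (57.1%), within 20 bases of the start. Among the genes with a peak, the median position of the summit from the canonical start was −26 bp at the 51 with the initiator and −2.5 bp at the 20 without. The lower figure does not mean closer summits, since positions on both sides of the start offset each other in a median. Within 50 bp of the canonical start were 32 of the 51 (62.75%) and 10 of the 20 (50%).

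The DRE core ATCGAT was in the start window of 39 of 92 ribosomal protein genes (42.4%), 46.2% of eIF and eEF genes, 37.0% of mitochondrial ribosomal protein genes and 22.7% of all genes. The full DRE, TATCGATA, holds the core and was picked from the summit windows of the ribosomal protein genes, as described below. It was in 28 of 92 ribosomal protein genes (30.4%), 26.9% of eIF and eEF genes, 20.5% of mitochondrial ribosomal protein genes and 8.94% of all genes. Both words thus had higher shares in all 3 of these groups than over all genes, though for the full DRE at ribosomal protein genes this only describes a picked word. Motif 1, the site of M1BP, was searched as GGTCACACT and was in 9 of 92 ribosomal protein genes (9.78%), 11.0% of mitochondrial ribosomal protein genes, 5.77% of eIF and eEF genes and 5.87% of all genes. All 9 of these genes had a peak, namely RpL7, RpL19, RpL27, RpL27A, RpL37A, RpLP1, RpS9, RpS15 and RpS23. A peak was, however, present at 71 of all 92 ribosomal protein genes. Over all protein-coding genes, 289 of the 818 with this word had a peak, against 24.3% of all genes. Whether the word goes with a peak was not tested. The GAGA factor's word GAGAG was in 16 of 92 windows (17.4%), against 30.3% of all genes, and TATAAA was in 42 of 92 (45.7%), against 45.3% of all genes. The core of the site described for Huckebein, CACGCCC, was in none of the 92 start windows, against 1.64% of all genes. It was also in none of the 71 summit windows of ribosomal protein genes, against 0.634% of the summit windows of other genes. These counts say only which letters are in a window.

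A further word, CGTTTCC, was picked because it was common in the summit windows of the ribosomal protein genes themselves, so its counts are a description. It was in 16 of their 71 summit windows (22.5%), against 0.785% of the summit windows of other genes. In start windows it was found at 20 of 71 ribosomal protein genes with a peak (28.2%) and 1 of 21 without (4.76%, RpL40), and at 3.17% of all genes. Most start windows of the genes with a peak overlap the summit windows in which the word was picked. These contrasts are thus not independent of the picking and say nothing further about the genes. By subunit it was in the start window of 14 of 54 large subunit genes and 7 of 38 small subunit genes. The full DRE, picked in the same way, was in 10 of the 71 summit windows (14.1%) and in 3 of 17 of eIF and eEF genes (17.6%), against 1.90% at all genes other than ribosomal protein genes. At RpL24 the word stands just before the start, between the summit and the initiator letters of the run shown above, and RpL32, RpL30 and RpL3 lack it.

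**Figure D4:**
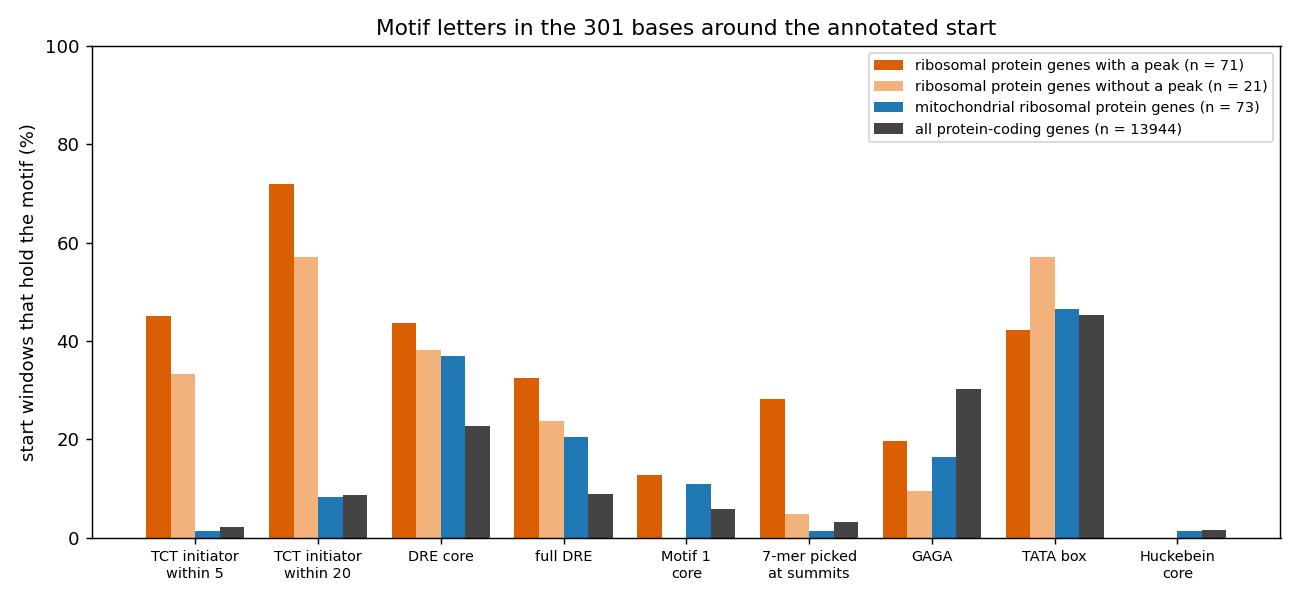
Percentage of start windows (250 bases before to 50 after the canonical start) that hold each word, for ribosomal protein genes with a peak (orange, n = 71) and without (light orange, n = 21), mitochondrial ribosomal protein genes (blue, n = 73) and all protein-coding genes (black, n = 13944). The initiator within 20 bases is in 71.8% and 57.1% of the ribosomal protein genes with and without a peak. The 7-base word picked at summits of the genes with a peak, CGTTTCC, is in 28.2% and 4.76%, a contrast not independent of that picking.

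Several ribosomal proteins have 2 or 3 gene copies in the fly. Grouped by symbol there were 13 sets, and in 8 of them a single gene carried a peak in the combined list. The 13 sets held 27 genes, of which 16 had a peak, against 55 of the 65 genes outside the sets. Genes of a set are called copies here by symbol only. RpL7-like, RpL24-like and RpLP0-like resemble assembly factors, as said above, so their sets may not be copies of 1 ribosomal protein. In 8 sets exactly 1 copy had a peak, in 4 sets every copy had one, and the set of RpL10Aa and RpL10Ab had none. In the conservative list, where RpL24-like and RpS5b also had a peak, 6 sets had a peak at exactly 1 copy and 6 at every copy. In both lists the sets of RpL7 and RpLP0 were among those with a peak at every copy. They were so only through RpL7-like and RpLP0-like, whose summits were nearer to another gene's start. With each summit of the combined list given only to its nearest start, neither of these 2 genes had a peak. The start regions of the copies shared little sequence. In windows of 501 bp around the starts, the longest run of identical bases between copies was 9 to 14 bp, apart from 25 bp between RpS15Aa and RpS15Ab.

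In 7 of the 8 sets with 1 peak, the listed copy was on X and the other copies were on autosomes, 5 of them small and 2 of them large subunit sets (RpL22 and RpL37-1). RpS28b had signal values of 205 with both replicates joined, 129 in replicate 1 and 93.8 in replicate 2, while its copies RpS28a and RpS28-like reached 33.8 and 12.1 in the unthresholded combined list. RpS5a had 159 with both replicates joined, 92.3 in replicate 1 and 64.0 in replicate 2, while RpS5b, which is used mainly in the female germ line, reached 59.4 as a candidate. RpS10b had 187 with both replicates joined, 96.9 in replicate 1 and 86.5 in replicate 2, against 47.8 at RpS10a. RpS15Aa had 154 with both replicates joined, 101 in replicate 1 and 61.1 in replicate 2, against 43.4 at RpS15Ab. RpS19a had 153 with both replicates joined, 108 in replicate 1 and 48.5 in replicate 2, against 31.1 at RpS19b, another copy of the germ line. The candidates of these copies were present but below the threshold of the list.

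The large subunit sets with 1 peak showed the same arrangement of a copy listed in the combined list beside a copy not listed there. RpL22 had signal values of 264 with both replicates joined, 176 in replicate 1 and 92.8 in replicate 2, and RpL22-like, which is used in the testis, had no candidate. RpL37-1 had 161 with both replicates joined, 88.3 in replicate 1 and 67.2 in replicate 2, and RpL37-2 had no candidate. RpL24, given above, had 383 in the combined list, and the candidate of RpL24-like reached 61.9. RpL10Ab had a candidate of 66.4 and RpL10Aa had none. In the sets with a peak at every copy, RpL34a had 273 with both replicates joined, 135 in replicate 1 and 131 in replicate 2, below RpL34b in each. RpL7-like had 85.2 in the combined list and 49.1 in replicate 1, RpLP0-like had 88.5 with both replicates joined, 43.8 in replicate 1 and 42.4 in replicate 2, and both lay under RpL7 and RpLP0. RpLP0 had 153 in replicate 1 and 123 in replicate 2. RpS14a and RpS14b lie in tandem on the X with starts 1156 bp apart, each with a summit of its own. RpS14b had 157 with both replicates joined, 93.8 in replicate 1 and 61.5 in replicate 2, with the summit 26 bp upstream, and RpS14a had 103 in the combined list and 46.5 in replicate 2, with the summit 22 bp downstream.

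The start regions of 2 sets are shown because a copy with a peak in the combined list can be read beside a copy without one there. The layout is as for the runs above, with capitals for TCTTT or CCTTT near the start and for ATCGAT. RpS28b is at chrX:9554493-9554647 on the plus strand and RpS28a at chr3R:30022624-30022778 on the minus strand. RpS5a is at chrX:17148240-17148394 and RpS5b at chr3R:14901539-14901693, both on the minus strand. All 4 runs hold initiator letters within 20 bases of the start, and of the 4 only RpS28b holds ATCGAT here, in 2 places.
RpS28b: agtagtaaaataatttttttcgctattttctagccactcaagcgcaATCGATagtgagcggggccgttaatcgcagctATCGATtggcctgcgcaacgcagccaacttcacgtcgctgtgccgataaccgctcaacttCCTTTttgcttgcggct
RpS28a: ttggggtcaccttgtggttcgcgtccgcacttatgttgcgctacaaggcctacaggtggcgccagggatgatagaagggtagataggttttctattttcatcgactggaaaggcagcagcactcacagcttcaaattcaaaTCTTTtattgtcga
RpS5a: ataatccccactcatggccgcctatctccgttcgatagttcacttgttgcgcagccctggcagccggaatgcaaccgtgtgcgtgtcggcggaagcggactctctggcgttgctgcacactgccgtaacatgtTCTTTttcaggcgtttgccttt
RpS5b: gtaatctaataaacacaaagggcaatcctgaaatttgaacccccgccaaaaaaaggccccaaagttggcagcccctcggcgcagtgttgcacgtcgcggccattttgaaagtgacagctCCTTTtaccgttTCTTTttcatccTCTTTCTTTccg

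**Figure D5:**
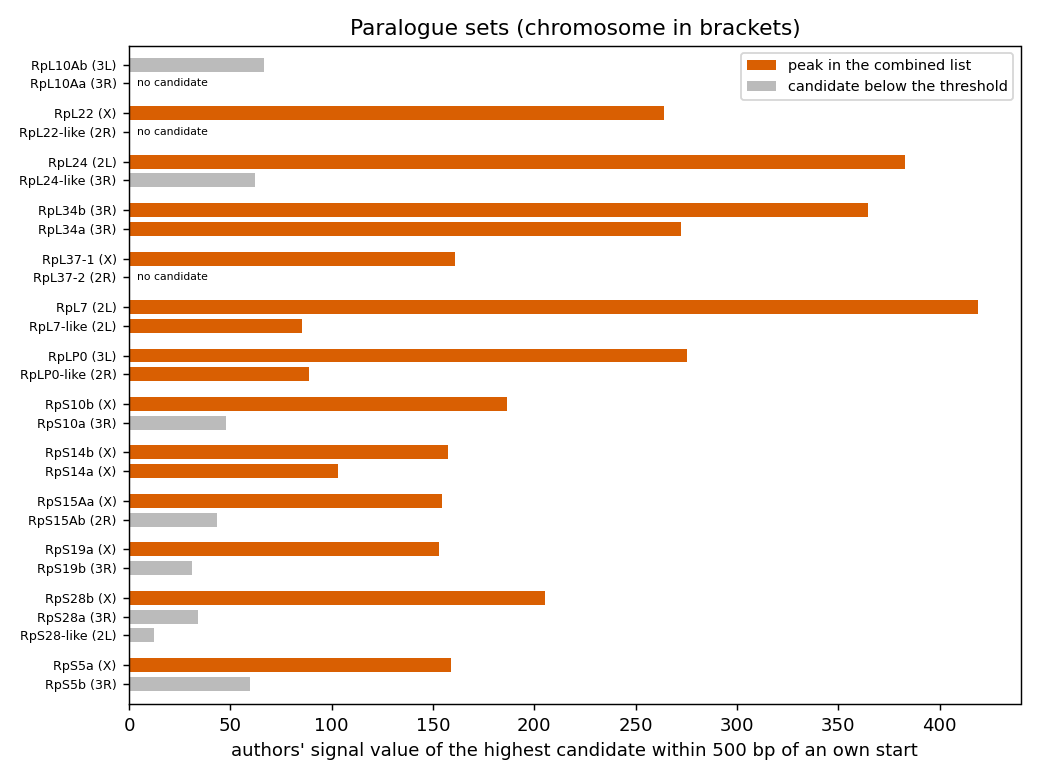
Signal value (score, linear axis from 0) of the highest candidate within 500 bp of an own start in the unthresholded combined list, for the 27 genes of the 13 sets of copies, with the chromosome in brackets. Orange bars are peaks of the combined list and grey bars are candidates below its threshold, and 3 genes have no candidate. Listed copies run from 85.2 at RpL7-like to 419 at RpL7, and unlisted copies from 12.1 at RpS28-like to 66.4 at RpL10Ab.

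By chromosome, a peak was found at 14 of 14 ribosomal protein genes on X, 15 of 19 on 2L, 14 of 21 on 2R, 12 of 14 on 3L, 15 of 23 on 3R and at RpS3A, the single one on 4. The share of all protein-coding genes with a peak ran from 21.4% on X to 26.6% on 3L. The 14 genes on X were thus all listed although X had the lowest share over all genes. The median signal value of the ribosomal protein genes with a peak was 156 on X, close to 159 on 2L. It was 188 on 2R, 190 on 3L and 226 on 3R, and RpS3A on 4 had 127.

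The 21 genes without a peak in the combined list, 13 large and 8 small subunit genes, fell into 3 kinds. Of the 21, RpL12, RpL24-like, RpL40 and RpS5b had a peak in the conservative list, which the authors thresholded separately. The first kind had no candidate within 500 bp of a start in the unthresholded combined list and comprised 7 large subunit genes, namely RpL5, RpL10Aa, RpL15, RpL21, RpL22-like, RpL37-2 and RpL38. Around 4 of them the whole neighbourhood was bare. Within 50 kb there was no candidate at RpL5, RpL21 or RpL38 and 1 at RpL15, while the genes with a peak had a median of 104 candidates within 50 kb, with a range of 4 to 162. The lowest of these counts, 4, was that of RpL10 on 3L. RpL5 and RpL21 lie near the inner end of 2L and RpL15 near that of 3L, and RpL38 lies toward the inner end of 2R, regions close to the centromeres that are rich in repeats. How repeats were treated when the reads were aligned is not stated in the labels, so a gene without binding and a gene whose reads were not placed cannot be told apart. RpL10Aa had 18 candidates but no listed peak within 50 kb, RpL22-like had 39 candidates and RpL37-2 had 40, so candidates were called around these genes but not at their starts.

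The second kind had candidates below the threshold of the list, an irreproducible discovery rate (IDR, the rate at which peaks fail to repeat between replicates) of 0.01, which is 2 on the −log10 scale. These 13 genes had candidates between 12.1 and 78.1 in signal value. RpL12, part of the base of the stalk, reached 78.1 with a −log10 IDR of 1.76, and RpL40 reached 70.4 with 2.00 after rounding, just under the threshold. RpL24-like had a −log10 IDR of 1.89, RpS5b had 1.47 and RpL10Ab had 1.29. RpL6, RpS10a, RpS15Ab, RpS19b, RpS24, RpS28a and RpS28-like had values of at most 55.4 and −log10 IDR of at most 0.611. For comparison, the listed peak of RpS13 had a value of 67.1, so values of listed and unlisted genes overlapped.

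The third kind was RpL13A alone. Its candidate reached 222 in the unthresholded combined list, with the summit 43 bp upstream of the start and a −log10 IDR of 5, well past the threshold, and it had 119 in replicate 1 and 103 in replicate 2. It was in none of the thresholded lists. The combined unthresholded list held 7388 peaks past the IDR threshold on these arms, and 168 of them were not in the thresholded list.

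The start regions of RpL13A and RpL15 are shown because both hold initiator letters near the start and neither had a peak in a thresholded list. RpL13A is at chr3R:5624344-5624498 and RpL15 at chr3L:27267126-27267280, both on the plus strand, with the start at base 131 and capitals for TCTTT.
RpL13A: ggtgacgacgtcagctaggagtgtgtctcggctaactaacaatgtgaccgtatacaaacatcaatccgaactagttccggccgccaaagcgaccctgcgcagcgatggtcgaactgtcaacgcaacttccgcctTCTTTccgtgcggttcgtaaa
RpL15: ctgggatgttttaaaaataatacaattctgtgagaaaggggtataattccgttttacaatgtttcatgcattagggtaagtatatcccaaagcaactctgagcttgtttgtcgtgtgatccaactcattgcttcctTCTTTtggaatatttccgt

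Features that no peak list holds were also counted at ribosomal protein genes with and without a peak, but not over all protein-coding genes. The median gene length was 1396 bp at the 71 genes with a peak and 894 bp at the 21 without, and several annotated starts were present at 40 of 71 genes with a peak and at 4 of 21 without. A gene with several starts has more places where a summit can be counted, so the numbers of starts are not independent of the counting rule. With the outermost start only, 70 ribosomal protein genes had a peak. Small nucleolar RNAs, which guide the modification of ribosomal RNA and are often made from introns of ribosomal protein genes, lay inside 23 of the 71 genes with a peak (66 RNAs) and inside 5 of the 21 without (8 RNAs). RpS5a held 14 of them and RpS7 held 7. Of the genes with a peak 16 of 71 belonged to sets of copies, against 11 of 21 of those without.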

How the data were processed

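Peak lists of 2 biological replicates on dm6, per the labels, were used as deposited: the authors' thresholded lists of both replicates combined (7220 peaks) and of replicate 1 (5260) and replicate 2 (4347), a conservative list (6989), and unthresholded ranked lists. The signal value is a score of each peak deposited by the authors, and it served to describe and rank peaks within a list. The −log10 IDR of ranked peaks was also the authors', deposited with the lists. The −log10 q-value the authors deposited entered no result. No aligner or peak caller is named in the sources used here.

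Summits (peak start plus summit offset) were matched to transcript starts of Ensembl release 115 (18164 genes, 35497 transcripts) with Python 3.11.15, pandas 2.3.3 and NumPy 2.4.6. Exact intervals came from SciPy 1.17.1 and plots from Matplotlib 3.10.9. A gene took its highest summit within 500 bp. The matching was tested on simulated data. Words were searched in the RefSeq Release 6 sequence, and no RefSeq promoter, protein or miRNA table was used.

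Values in each list were given for the 6 large and 6 small subunit genes highest in the combined list and for all sets of copies (symbols alike apart from a final a or b, 1 or 2, or like). Every gene without a peak, with a peak in 1 replicate list only, or nearer to another gene's start was named, except 3 genes that are counted but not reported here by name. The members and lists were chosen with earlier results of these data known. The 50 bp limit for summits near a start, the split by neighbouring starts, the initiator limit of 20 bases, the printed sequences and the other named genes were chosen after their values were seen. CGTTTCC and TATCGATA were picked from the most unequal of all words of 6, 7 and 8 bases in summit windows of ribosomal protein genes and other genes.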

Additional observations from a re-analysis of the deposited data

Results flagged for a closer look

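RpL13A had a candidate of 222 in signal value in the unthresholded combined list, past the IDR threshold, but was in none of the thresholded lists on which the counts rest. The candidate stood above the median of 178.8 of the ribosomal protein genes with a listed peak, and its value was 119 in replicate 1 and 103 in replicate 2. With the ranked list held to the same threshold, RpL13A was the single gene gained and 72 of 92 ribosomal protein genes had a peak. Why the peak is not in the thresholded list was not tested.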

How the results depend on the processing

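Of 84 values recomputed under other settings, 72 stayed within their limits. The limits for counts were wide, since 56 ribosomal protein genes with a peak still passed against 71. The median position was judged by the standard deviation of the replicate medians, 5.66 bp, and these medians were among the values judged. Most settings also read the same peaks again. The count of 72 is thus no measure of how stable the results are. Ribosomal protein genes with a peak numbered 56 to 74 of 92 in every setting run, against 71. The median summit position of −14 bp became −20.5 bp with the stronger 50% of the list, −3 bp with the outermost start only, and −20 to −12 bp with either replicate left out. The upstream share became 51.4% with the outermost start only. With the stronger 50% of the list, 60.9% of ribosomal protein genes had a peak, against 14.3% of all protein-coding genes (24.3% in the full list). Where the peak had to cover a start, the shares were 70.7% of ribosomal protein genes and 15.5% of all protein-coding genes. The initiator share of 42.4% became 68.5% within 20 bases, and 64.8% for its letters on either strand of summit windows. In those shorter windows the shares were 18.3% for ATCGAT, 4.23% for GGTCACACT, 4.23% for GAGAG and 7.04% for TATAAA. These windows differ in length, centre and genes from the start windows. The cause of the moves was not tested. Leaving out a replicate took 12 genes (without replicate 1) or 10 genes (without replicate 2) off the list, none gained. Positions of the 25 named genes moved by no more than the spread between replicates in 206 of 237 recomputations. Most settings read the same summit again, and settings in which a gene lost its peak were not counted. The spread itself came from the replicate positions that were among those judged. This count is thus no measure of how stable the positions are.

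No paired analysis was possible because there is only 1 group. The lists hold no reads, so depth and its limits are unknown. Mixed embryo ages, the lack of a control and the unknown scale of the signal value limit every result.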
